A study of Mus musculus with 8 samples.

Results

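The 9 genes described here encode enzymes that add methyl groups to lysine 9 of histone H3 (H3K9) or remove them. They were chosen by symbol, with earlier results of these data known. They are the 6 methyltransferases Suv39h1, Suv39h2, Setdb1, Setdb2, Ehmt1 and Ehmt2, and the 3 demethylases Kdm3a, Kdm4d and Kdm1a. All 9 were found among the 23983 genes of the expression table. RNA was sequenced from pieces of whole testis of C57BL/6J mice at day (d) 12, d16 and d24 post partum (p.p.) and from adult mice, whose age the labels do not give. All animals carried the same genotype label and no treatment is named. Germ cells of juvenile mice enter and pass meiosis in near synchrony, which is why the age of a young testis sets how far its most advanced germ cells have come. There was 1 library per stage, so no value below has a replicate and no stage could be compared by a test.

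H3K9 methylation marks silent chromatin. The Suv39h enzymes place the trimethyl mark on pericentromeric heterochromatin, where HP1 proteins bind it, whereas the Ehmt1 and Ehmt2 proteins (also called GLP and G9a) form a heterodimer that places mono- and dimethyl marks in euchromatin, and Setdb1 acts with Trim28 to silence retroelements. In male germ cells H3K9 methylation changes through meiosis, when pericentromeric heterochromatin and the silenced sex chromosomes carry it, and Kdm3a is known as a demethylase needed to switch on the genes that package sperm DNA.

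Expression was given in FPKM, that is fragments per kilobase of transcript, divided by a factor for the library, so levels can be compared between genes. That factor did not follow the number of fragments on genes. At 1 kb, 1 fragment was worth 0.0800 FPKM at d12 and 0.112 FPKM in the adult, which had more fragments. The number of fragments behind a value was recovered from the FPKM and the transcript length. Intervals below are exact 95% intervals from these fragments. They cover counting error only, because fragments are not independent molecules and the spread between animals is unknown. The fragments implied for all genes together numbered 8895570 (d12), 9429390 (d16), 23639600 (d24) and 12029200 (adult), so counting error is smallest at d24. "Rose" and "fell" are used for a change of at least 2-fold on the log2(FPKM + 0.1) scale, and all 9 genes were among the 13901 whose mean over the libraries reached 1 FPKM. In whole testis, fewer cells of a type and less RNA per cell cannot be told apart.

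**Figure D1:**
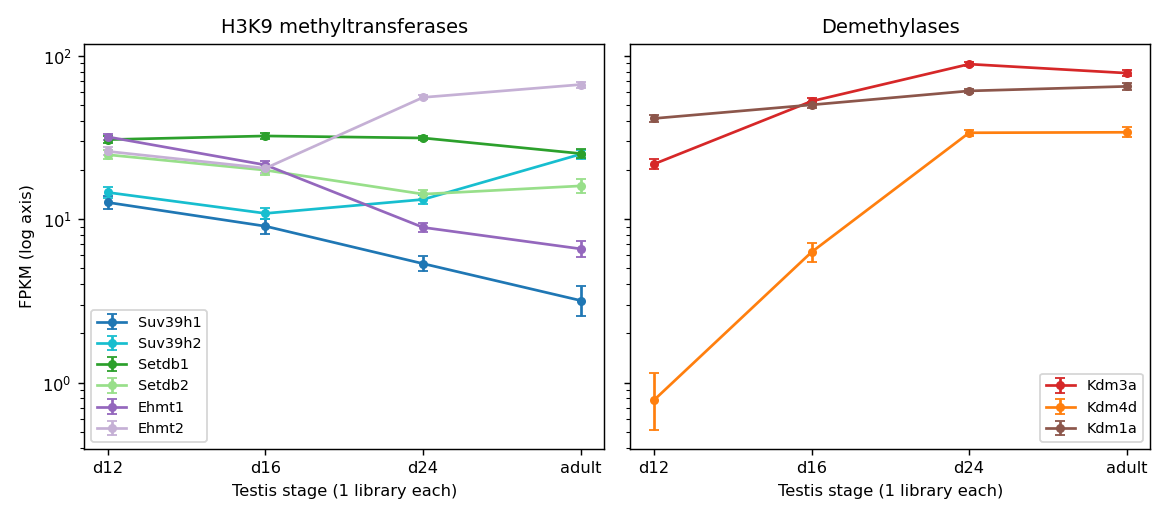
FPKM (log axis) of the 6 H3K9 methyltransferases (left) and 3 demethylases (right) in the d12, d16, d24 and adult libraries. Points are single libraries and bars are 95% counting intervals. Ehmt1 and Suv39h1 go down from 31.8 and 12.6 FPKM at d12 to 6.58 and 3.18 FPKM in the adult, while Kdm4d goes up from 0.780 to 34.0 FPKM.

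Between d12 and the adult, 3 of the 9 genes rose (Kdm4d, Kdm3a and Ehmt2) and 2 fell (Ehmt1 and Suv39h1). Among all 13901 expressed genes, 35.7% rose and 23.1% fell between the same libraries. The rise of Kdm4d also passed 2-fold under the 3 other scalings between libraries that were tried, and the rises of Kdm3a and Ehmt2 under 1 of them. The falls of Ehmt1 and Suv39h1 passed it under all 3 by construction. Each scaling divides the adult by a larger factor than d12 (2.32, 1.91 and 1.04 relative to d12), so a fall can only grow. In both the Suv39h and the Ehmt pair of methyltransferases the balance of the genes shifted. Suv39h1 held 12.6 and Suv39h2 14.6 FPKM at d12, and in the adult Suv39h2 was 7.86-fold above Suv39h1. Ehmt1 was 1.226-fold above Ehmt2 at d12, and Ehmt2 was 10.1-fold above Ehmt1 in the adult. The demethylases made up 31.2% of the summed FPKM of the 9 genes at d12 and 55.4% in the adult.

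The sequences directly upstream of the 4 genes of these pairs are shown because the members of each pair diverge in level. They are the 150 bases before the outermost annotated exon, from RefSeq on GRCm38.p6, written 5′ to 3′ on the strand of the gene. Capitals mark 3 short motifs searched on both strands: the cAMP response element (TGACGTCA), which CREB and CREM proteins bind, the CCAAT box (CCAAT or ATTGG) and the GC box (GGGCGG or CCGCCC). The Suv39h1 stretch is chrX:8074761-8074910 on the minus strand, Suv39h2 chr2:3474987-3475136 (minus), Ehmt1 chr2:24919644-24919793 (minus) and Ehmt2 chr17:34898313-34898462 (plus).
Suv39h1: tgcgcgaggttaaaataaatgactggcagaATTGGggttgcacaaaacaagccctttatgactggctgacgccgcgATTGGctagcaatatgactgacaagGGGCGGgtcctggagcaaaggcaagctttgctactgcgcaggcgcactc
Suv39h2: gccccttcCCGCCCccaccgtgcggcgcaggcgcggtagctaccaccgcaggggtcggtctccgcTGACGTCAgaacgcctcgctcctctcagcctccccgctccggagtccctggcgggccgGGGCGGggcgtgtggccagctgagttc
Ehmt1: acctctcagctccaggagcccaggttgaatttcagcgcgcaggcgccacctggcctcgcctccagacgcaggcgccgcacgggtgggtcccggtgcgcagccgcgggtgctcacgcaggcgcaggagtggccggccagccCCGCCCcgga
Ehmt2: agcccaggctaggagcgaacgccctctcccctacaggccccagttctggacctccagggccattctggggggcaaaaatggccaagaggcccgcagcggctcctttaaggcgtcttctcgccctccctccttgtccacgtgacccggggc
The Suv39h1 stretch holds 2 CCAAT boxes and 1 GC box, and the Suv39h2 stretch holds 1 cAMP response element and 2 GC boxes. The Ehmt1 stretch holds 1 GC box, and none of these letters are in the Ehmt2 stretch shown. Ehmt2 has another annotated start, whose upstream stretch (chr17:34898809-34898958, not shown) holds 2 GC boxes, and the 250-base windows before its 2 starts hold 2 and 4 GC boxes. Over the 250 bases before a start, the cAMP response element is in 1.55% of 32851 annotated mouse promoters, the CCAAT box in 33.8% and the GC box in 32.7%. Of the 13 such windows of the 9 genes, 1 holds the cAMP response element (Suv39h2), 6 the CCAAT box and 9 the GC box. A match of letters is a description and no evidence of binding.

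Suv39h1 (chrX:8061171-8074760, minus strand), which encodes a methyltransferase that trimethylates H3K9 in heterochromatin, was at 12.6 FPKM at d12 (95% interval 11.6 to 13.8), 9.05 at d16 (8.13 to 10.0), 5.34 at d24 (4.805 to 5.92) and 3.18 in the adult (2.55 to 3.91), from 493, 352, 365 and 88 fragments. Every stage was lower than the one before, with intervals that do not overlap. The adult level was 3.98-fold lower than that of d12 (interval 3.17 to 5.06). GENCODE annotates the antisense gene Gm14820 (chrX:8042943-8074619, plus strand) across Suv39h1, with 600 bases that match the Suv39h1 transcript, and the authors mapped the reads by strand. No single step reached 2-fold, and the largest were the 1.70-fold lower level at d24 than at d16 and the 1.68-fold lower level in the adult than at d24.

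Suv39h1 is X-linked, and X-linked genes as a group were lower after d12. The median expressed X-linked gene (614 genes) was at 0.426-fold of its d12 level in the adult, and 55.7% of them fell. From d12 to d16 and from d16 to d24, the Suv39h1 changes of 0.716-fold and 0.590-fold were near the X-linked medians of 0.738-fold and 0.619-fold. From d24 to the adult the X-linked median was 0.979-fold and Suv39h1 was at 0.595-fold, with 7.003% of X-linked genes showing a lower change. Whether the location on the X chromosome bears on the Suv39h1 level was not tested.

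Suv39h2 (chr2:3455815-3474986, minus strand) encodes the related enzyme for the same mark, known for its expression in the adult testis. It was at 14.6 FPKM at d12 (13.5 to 15.6), 10.8 at d16 (9.96 to 11.8), 13.2 at d24 (12.5 to 13.96) and 25.0 in the adult (23.4 to 26.6). The adult library was the highest and d16 the lowest. Its adult level was 1.89-fold that of d24 (1.74 to 2.06), just under the 2-fold limit, and 1.71-fold that of d12. After rescaling of the libraries to equal FPKM sums or upper quartiles, the adult level was below that of d12 (0.738-fold and 0.899-fold) and the d24 level below that of d16 (0.793-fold and 0.843-fold), whereas the adult level stayed above that of d24 (1.36-fold and 1.59-fold).

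The ratio of Suv39h1 to Suv39h2 within a library does not depend on the scaling between libraries. It was 0.868 at d12 (0.774 to 0.974), 0.835 at d16 (0.728 to 0.956), 0.405 at d24 (0.359 to 0.455) and 0.127 in the adult (0.101 to 0.158). The d12 and d16 intervals overlap, and both later stages were lower, so the ratio moved 6.83-fold from d12 to the adult. The summed FPKM of the pair was 27.2 (d12), 19.9 (d16), 18.5 (d24) and 28.1 (adult), so the d12 and adult sums were close as deposited while the share of Suv39h2 in them went from 53.5% to 88.7%. Unlike the share, the sums depend on the scaling. With equal FPKM sums the adult levels of Suv39h1 and Suv39h2 were 0.108-fold and 0.738-fold of d12. With upper quartiles they were 0.132-fold and 0.899-fold.

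**Figure D2:**
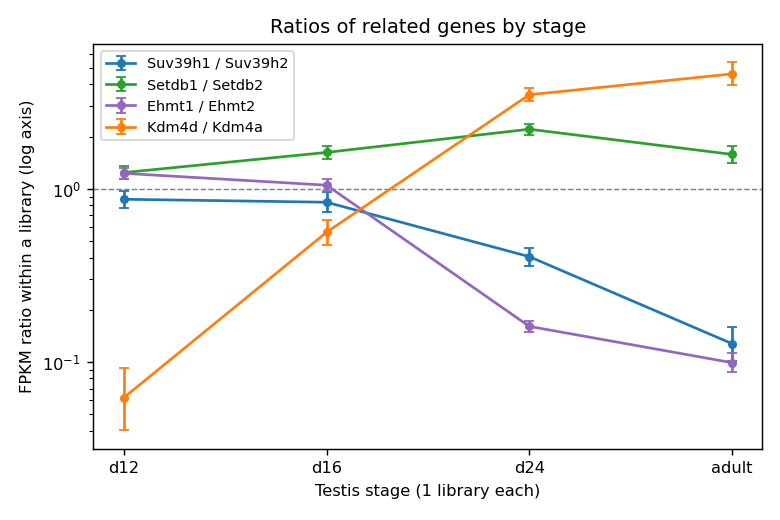
FPKM ratio (log axis) of related genes within each of the 4 libraries, with 95% counting intervals and a dashed line at equal levels. Suv39h1 / Suv39h2 goes from 0.868 at d12 to 0.127 in the adult and Ehmt1 / Ehmt2 from 1.226 to 0.0988, Setdb1 / Setdb2 stays between 1.24 and 2.21, and Kdm4d / Kdm4a goes from 0.0620 to 4.60.

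Ehmt1 (chr2:24790769-24919643, minus strand), which encodes GLP, was at 31.8 FPKM at d12 (30.5 to 33.3), 21.4 at d16 (20.3 to 22.6), 8.90 at d24 (8.35 to 9.48) and 6.58 in the adult (5.84 to 7.38). It was lower at every stage than at the one before. From d16 to d24 it fell 2.41-fold (2.22 to 2.62), and from d12 to the adult 4.84-fold (4.28 to 5.50). It ranked 1825 of 13901 expressed genes at d12 and 8413 in the adult.

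Ehmt2 (chr17:34898463-34914073, plus strand), which encodes the G9a partner of GLP, was at 26.0 FPKM at d12 (24.5 to 27.5), 20.5 at d16 (19.2 to 21.8), 55.6 at d24 (54.0 to 57.2) and 66.6 in the adult (63.9 to 69.4). The d12 and d16 libraries were low and those of d24 and the adult high. From d16 to d24 it rose 2.72-fold (2.53 to 2.91), and from d12 to the adult 2.56-fold (2.39 to 2.75). These rises depended on the scaling: with equal FPKM sums they were 1.77-fold and 1.103-fold, and with upper quartiles 1.88-fold and 1.34-fold. The adult level was 1.20-fold that of d24 as deposited and 0.859-fold with equal sums.

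The Ehmt1 to Ehmt2 ratio was 1.226 at d12 (1.14 to 1.32), 1.05 at d16 (0.963 to 1.14), 0.160 at d24 (0.149 to 0.172) and 0.0988 in the adult (0.0871 to 0.112). At d16 the levels could not be separated by counting error. Most of the shift lay between d16 and d24, where the ratio moved 6.54-fold of the 12.4-fold over all stages. The summed FPKM of the pair was 57.8 (d12), 41.9 (d16), 64.5 (d24) and 73.2 (adult). Ehmt2 made up 44.9% of the pair at d12 and 91.0% in the adult. The Ehmt1 and Ehmt2 transcripts are 68.9% identical over their longest match of 1703 bases, and those of Suv39h1 and Suv39h2 70.5% identical over 454 bases, below the 95% at which copies were taken to share reads.

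Setdb1 (chr3:95323525-95357202, minus strand), the trimethylating enzyme that acts with Trim28, had the narrowest range of the 9 genes in the deposited values. It was at 30.7 FPKM at d12 (29.3 to 32.1), 32.3 at d16 (30.8 to 33.8), 31.4 at d24 (30.3 to 32.5) and 25.2 in the adult (23.7 to 26.8). The first 3 intervals overlap and the adult was lower, at 0.821-fold of d12. With equal sums or upper quartiles the small difference between d12 and d16 turned its sign (0.969-fold and 0.952-fold) and the adult was at 0.353-fold and 0.431-fold of d12. Among expressed genes Setdb1 stood at the 86.3rd percentile at d12 and at the 69.6th in the adult. A stretch of 271 bases of its transcript is 99.6% identical to Gm4349, so part of its fragments may not be unique to it.

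Setdb2 (chr14:59402009-59440880, minus strand), a related enzyme of the SETDB family, was at 24.8 FPKM at d12 (23.2 to 26.4), 19.9 at d16 (18.5 to 21.4), 14.2 at d24 (13.3 to 15.2) and 15.97 in the adult (14.5 to 17.6). It was lower at d16 than at d12 and lower again at d24, by 1.24-fold and 1.40-fold, and the d24 and adult intervals overlap. With equal sums or upper quartiles the adult level was below that of d24 (0.805-fold and 0.940-fold) instead of 1.12-fold above it. The read-through gene Gm45935 is annotated on the same strand over Setdb2, so its reads and those of Setdb2 cannot be told apart. Setdb1 exceeded Setdb2 in all 4 libraries, by 1.24-fold at d12, 1.62-fold at d16, 2.21-fold at d24 and 1.58-fold in the adult.

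Kdm4d (chr9:14462548-14500522, minus strand), a JmjC-domain demethylase of di- and trimethylated H3K9, moved the most. It was at 0.780 FPKM at d12 (0.509 to 1.14), 6.28 at d16 (5.46 to 7.19), 33.8 at d24 (32.3 to 35.3) and 34.0 in the adult (31.7 to 36.4), from 26, 209, 1971 and 805 fragments. It was low at d12, intermediate at d16 and on a plateau from d24. It rose 8.05-fold from d12 to d16 (5.34 to 12.6) and 5.38-fold from d16 to d24 (4.66 to 6.23), and its adult level was 1.007-fold that of d24 (0.926 to 1.09). That last ratio was 0.722 with equal sums and 0.843 with upper quartiles. Kdm4d was the only one of the 9 genes under 2 FPKM at d12 and at or above 2 FPKM at d16, as were 3.55% of the 23983 genes in the table. The other 8 were above 2 FPKM in all 4 libraries, for which no share of all genes is given here.

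Its relative Kdm4a, a demethylase expressed in many tissues, was at 12.6, 11.2, 9.68 and 7.39 FPKM in the same order of stages. The ratio of Kdm4d to Kdm4a was 0.0620 at d12 (0.0401 to 0.0918), 0.560 at d16 (0.473 to 0.660), 3.49 at d24 (3.20 to 3.81) and 4.60 in the adult (3.96 to 5.36). Kdm4a was thus 16.1-fold above Kdm4d at d12 and below it from d24.

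Kdm3a (chr6:71588970-71632990, minus strand), the demethylase of mono- and dimethylated H3K9 known for its role in spermatid maturation, was at 21.7 FPKM at d12 (20.3 to 23.2), 52.7 at d16 (50.4 to 54.9), 88.8 at d24 (86.6 to 91.0) and 78.3 in the adult (75.1 to 81.6). It was lowest at d12 and highest at d24, and from d24 it was the highest of the 9 genes. It rose 2.42-fold from d12 to d16 (2.24 to 2.62), was 1.69-fold higher at d24 than at d16 and was 3.60-fold higher in the adult than at d12 (3.33 to 3.90). The last of these was 1.55-fold with equal sums and 1.89-fold with upper quartiles, under the 2-fold limit, while the rise to d16 stayed at 2.19-fold or more under the 3 scalings tried. Its curated transcripts run from 3253 to 4857 bases, and its fragments were counted with the shortest, so its intervals are less certain than the others.

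A pair of genes known as direct targets of Kdm3a in spermatids, the transition protein gene Tnp1 and the protamine gene Prm1, came later than Kdm3a itself. Tnp1 was at 2.81 FPKM (d12), 0.563 (d16), 460.5 (d24) and 4147 (adult). Prm1 was at 3.39, 1.20, 517.4 and 6208 FPKM. Kdm3a had reached 59.3% of its d24 level by d16, when Tnp1 rested on 3 fragments and Prm1 on 6. The higher d12 values also rested on few fragments, 15 for Tnp1 and 17 for Prm1, and their source was not tested. Between d24 and the adult Tnp1 rose 9.01-fold and Prm1 11.998-fold, and Kdm3a was at 0.881-fold.

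Kdm1a (chr4:136550533-136602787, minus strand), also called LSD1, removes methyl groups from H3K4 and in some complexes from H3K9. It was at 41.3 FPKM at d12 (39.3 to 43.4), 50.0 at d16 (47.8 to 52.4), 60.9 at d24 (59.0 to 62.8) and 64.9 in the adult (61.9 to 68.0). It was the highest of the 9 genes at d12, and each later level was slightly higher, up to 1.57-fold that of d12 in the adult. The order from d16 on turned round with equal sums or upper quartiles, under which the adult was at 0.676-fold and 0.824-fold of d12, d24 at 0.793-fold and 0.843-fold of d16 and the adult at 0.764-fold and 0.892-fold of d24. Its rank among expressed genes went from 1308 at d12 to 2069 in the adult. Kdm3a was at 0.526-fold of Kdm1a at d12 (0.484 to 0.571), level with it at d16 (1.05, 0.989 to 1.12) and above it at d24 (1.46) and in the adult (1.21).

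The order of the 9 genes changed with stage. At d12 it ran Kdm1a, Ehmt1, Setdb1, Ehmt2, Setdb2, Kdm3a, Suv39h2, Suv39h1 and Kdm4d, with overlapping intervals between Ehmt1 and Setdb1, between Ehmt2, Setdb2 and Kdm3a in turn, and between Suv39h2 and Suv39h1. In the adult it ran Kdm3a, Ehmt2, Kdm1a, Kdm4d, Setdb1, Suv39h2, Setdb2, Ehmt1 and Suv39h1, with overlap between Ehmt2 and Kdm1a and between Setdb1 and Suv39h2. The methyltransferases summed to 140.5 FPKM (d12), 114.0 (d16), 128.6 (d24) and 142.5 (adult), and the demethylases to 63.8, 109.0, 183.5 and 177.2 FPKM. The demethylase share was 31.2%, 48.9%, 58.8% and 55.4%, and it does not depend on the scaling.

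**Figure D3:**
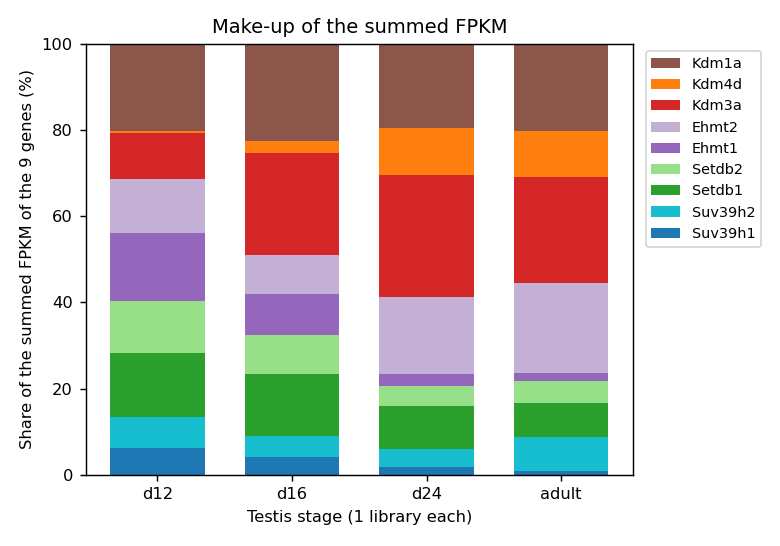
Share of the summed FPKM of the 9 genes (percent, stacked bars from 0) in each of the 4 libraries. The 3 demethylases at the top of the bars make up 31.2% at d12 and 58.8% at d24, and among the methyltransferases Ehmt1 goes from 15.6% at d12 to 2.06% in the adult while Ehmt2 goes from 12.7% to 20.8%.

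Counted by step, 2 of the 9 genes (Kdm3a and Kdm4d) rose from d12 to d16, beside 12.6% of all expressed genes, and none fell, beside 3.67%. From d16 to d24, 2 rose (Ehmt2 and Kdm4d), beside 27.5%, and 1 fell (Ehmt1), beside 8.45%. From d24 to the adult none rose, beside 11.4%, and none fell, beside 2.2%. The median log2 change of the 9 genes was -0.31, 0.28 and 0.01 over these steps and 0.65 from d12 to the adult, against 0.00, 0.13, -0.02 and 0.20 for all expressed genes.

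The FPKM sum over all genes grew from 283580 at d12 to 659202 in the adult, so the scaling between libraries matters. With equal sums the median log2 change of all expressed genes became -0.11, -0.47 and -0.49 over the 3 steps and -0.99 from d12 to the adult, and with upper quartiles -0.14, -0.39, -0.27 and -0.71. The share of called genes that rose was 77.5%, 76.5%, 83.8% and 60.7% with the deposited values, 68.2%, 39.2%, 41.8% and 31.7% with equal sums, and 66.4%, 43.6%, 67.8% and 36.8% with upper quartiles. Relative to the median expressed gene, the change from d12 to the adult was 0.182-fold for Ehmt1, 0.224-fold for Suv39h1, 0.562-fold for Setdb2, 0.715-fold for Setdb1, 1.37-fold for Kdm1a, 1.49-fold for Suv39h2, 2.23-fold for Ehmt2, 3.13-fold for Kdm3a and 33.7-fold for Kdm4d.

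**Figure D4:**
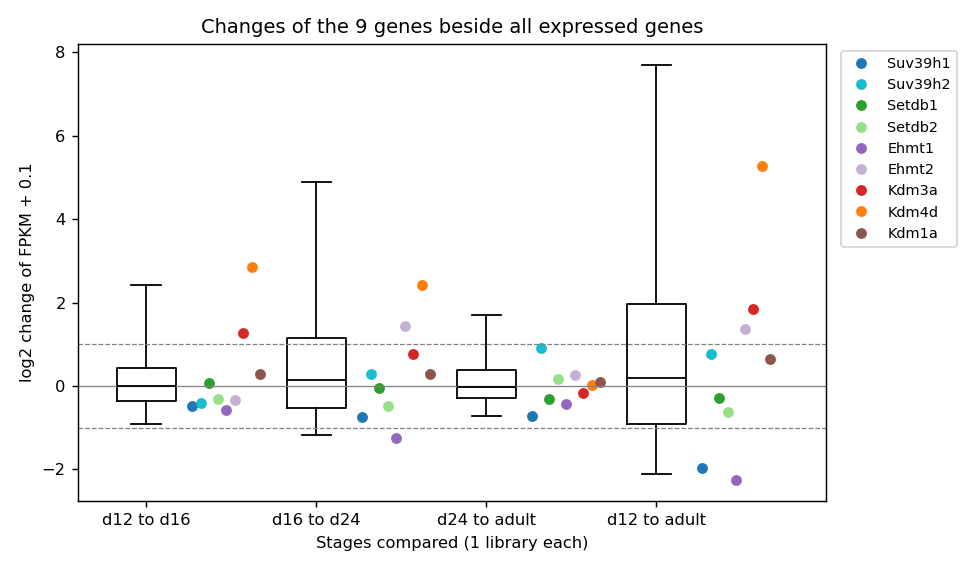
Change in log2(FPKM + 0.1) of the 9 genes (points) for 4 pairs of stages beside all 13901 expressed genes (boxes give the median and quartiles, whiskers the 5th and 95th percentiles). Dashed lines mark 2-fold. From d12 to the adult Kdm4d stands at 5.28, Ehmt1 at -2.26 and Suv39h1 at -1.96, and from d24 to the adult no point passes 2-fold.

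The changes ran beside a change in the cells of the testis. Lists of 6 markers each were summed for Sertoli cells, spermatogonia, pachytene spermatocytes, round spermatids and elongating spermatids, and lists of 3 for peritubular and endothelial cells. Relative to d12, the Sertoli sum was at 71.3% at d16, 41.2% at d24 and 28.8% in the adult, the spermatogonial sum at 59.9%, 27.2% and 19.1%, the peritubular sum at 81.3%, 42.5% and 31.8%, and the endothelial sum at 66.7%, 29.7% and 30.2%. Stra8 (86.4 FPKM) and Dmrt1 (77.4 FPKM) made up most of the spermatogonial d12 sum of 198.0 FPKM. Of that list 5 markers fell from d12 to the adult, while Gfra1 went up from 1.20 to 2.41 FPKM. Suv39h1 was at 71.6%, 42.2% and 25.1% of d12, and Ehmt1 at 67.3%, 27.9% and 20.6%. Both genes were lower at each later stage, as were the Sertoli, spermatogonial and peritubular sums, while the endothelial sum was level between d24 and the adult. The sum of 6 Leydig cell markers instead was 5.92-fold its d12 level in the adult, and that of 6 early meiotic markers was highest at d16. Sycp1 (536.0 FPKM) and Sycp3 (795.3 FPKM) held most of that d16 sum. Rad51ap2 was also highest at d16, but Dmc1 and Prdm9 were highest at d12 and Spo11 in the adult. Of the macrophage and blood markers, the globin gene Hbb-b1 was at 36.9 FPKM at d12 and between 0.768 and 9.75 FPKM later, and the macrophage and leukocyte genes Cd68, Csf1r and Ptprc stayed between 0.662 and 3.91 FPKM.

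The pachytene sum was 66.1 FPKM (d12), 863.6 (d16), 3666 (d24) and 4400 (adult). The round spermatid sum was 3.99, 23.6, 855.9 and 2348 FPKM, and the elongating spermatid sum 13.1, 4.42, 2424 and 26742 FPKM. At d12, 1 round spermatid marker was at 0, and at d16 2 of the 6. Actl7b held 19.5 of the 23.6 FPKM of the d16 round spermatid sum. No elongating spermatid marker rested on more than 36 fragments at d12 (Prm2). At d16 Kdm4d stood at 18.6%, Ehmt2 at 36.8% and Kdm3a at 59.3% of the d24 level, against 23.6% for the pachytene sum, 2.75% for the round spermatid sum and 0.183% for the elongating spermatid sum. Ldhc (2267 FPKM) and Hspa2 (941.3 FPKM) held most of the d24 pachytene sum. The single pachytene markers differed widely. From d16 to d24 Pgk2 went from 4.77 to 157.2 FPKM and Mybl1 from 37.6 to 54.2 FPKM. From d24 to the adult these 3 genes stood at 1.007-fold, 1.20-fold and 0.881-fold, the pachytene sum at 1.20-fold, the round spermatid sum at 2.74-fold and the elongating spermatid sum at 11.0-fold. The part of cell composition in the changes of the 9 genes was not tested.

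**Figure D5:**
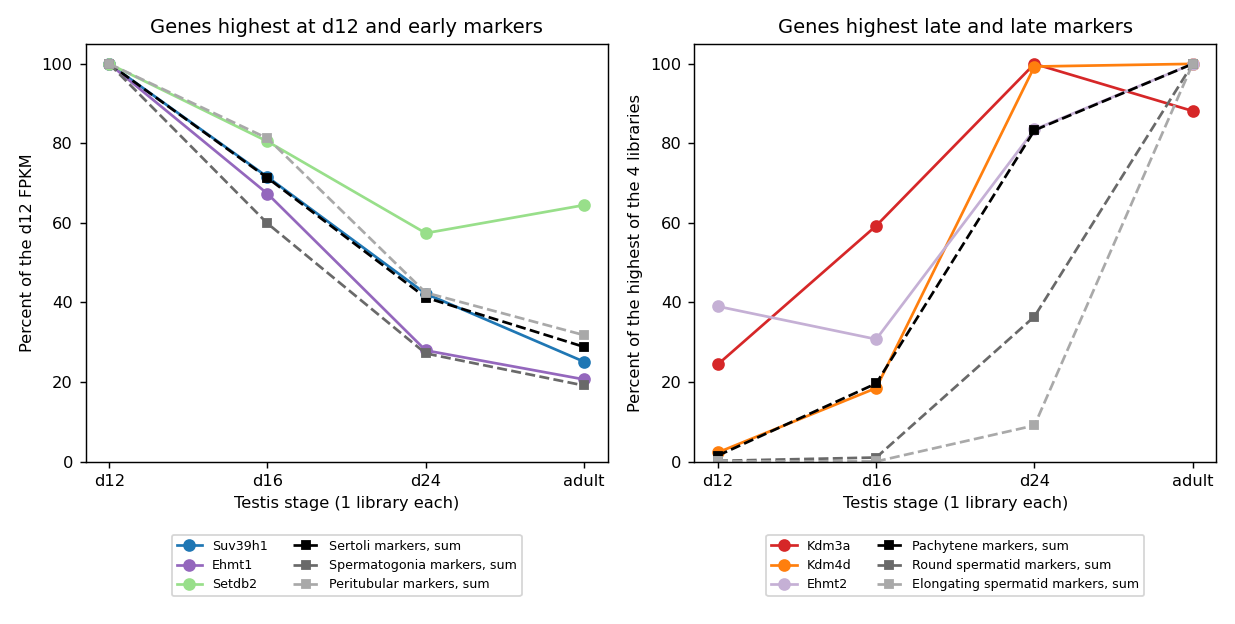
Left, FPKM of Suv39h1, Ehmt1 and Setdb2 and the summed FPKM of Sertoli, spermatogonia and peritubular markers as percent of d12. Right, FPKM of Kdm3a, Kdm4d and Ehmt2 and the summed FPKM of pachytene, round spermatid and elongating spermatid markers as percent of the highest library. Kdm4d is at 18.5% of its highest level at d16 and 99.3% at d24, and Suv39h1 is at 42.2% of its d12 level at d24.

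A further 33 genes of the pathway were read from lists of other methyltransferases, partners of the methyltransferases, HP1 proteins, other demethylases and the Kdm1a complex, and 31 of them passed the filter on low values. Of the 3 other methyltransferases, Mecom and Prdm16 did not pass. Prdm2, a PR-domain methyltransferase of H3K9, was at 10.8 FPKM (d12), 10.4 (d16), 30.7 (d24) and 24.4 (adult), and rose 2.95-fold from d16 to d24.

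Among the 11 partners, 4 rose and none fell from d12 to the adult, beside 35.7% and 23.1% of all expressed genes. With equal sums 1 rose and 4 fell, beside 23.1% and 49.7% of all expressed genes. With upper quartiles 1 rose and 2 fell, beside 25.4% and 43.6%. Cdyl, a chromodomain protein that binds methylated H3K9 and G9a, was at 16.3, 11.6, 38.0 and 160.6 FPKM. It rose at both later steps, 3.27-fold and 4.23-fold, and was the only one of the 31 genes past the filter that rose from d24 to the adult. The other 3 were Trim28, the corepressor that recruits Setdb1, with 2.26-fold (31.2, 43.4, 82.2 and 70.6 FPKM), Atf7ip2, of the family of Setdb1 cofactors, with 2.25-fold, and Pphln1, a subunit of the HUSH silencing complex, with 2.54-fold. Setdb1 itself was at 0.821-fold over the same interval. None of the 3 genes for the HP1 proteins that bind methylated H3K9 (Cbx1, Cbx3 and Cbx5) rose or fell at any step with the deposited values, and their summed FPKM was 188.7 at d12 and 119.1 in the adult. With equal sums or upper quartiles all 3 fell from d12 to the adult, beside 49.7% and 43.6% of all expressed genes.

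Of the 8 other demethylases, 1 rose (Phf2) and 3 fell (Kdm4c, Phf8 and Kdm7a) from d12 to the adult, beside 35.7% and 23.1% of all expressed genes. The falls became 7 with equal sums and 6 with upper quartiles, beside 49.7% and 43.6% of all expressed genes. Phf2 rose under both, beside 23.1% and 25.4%. Phf2, a JmjC-domain protein linked to H3K9 demethylation, was at 3.13 FPKM (d12), 4.23 (d16), 22.7 (d24) and 18.8 (adult), and rose 5.36-fold from d16 to d24. Kdm7a, a demethylase of H3K9 and H3K27, was at 59.8, 47.2, 21.9 and 20.7 FPKM and fell from d16 to d24 (0.464-fold). The summed FPKM of these 8 genes was 172.2 at d12 and 113.2 in the adult, whereas that of Kdm3a, Kdm4d and Kdm1a went from 63.8 to 177.2.

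In the list of 8 genes around Kdm1a, 2 rose (Rcor3 and Hdac1) and 3 fell (Rcor2, Hdac2 and Kdm1b) from d12 to the adult, beside 35.7% and 23.1% of all expressed genes. With equal sums 1 rose (Rcor3) and 5 fell, beside 23.1% and 49.7%. With upper quartiles 1 rose (Rcor3) and 4 fell, beside 25.4% and 43.6%. Rcor proteins are the CoREST scaffolds that hold Kdm1a on chromatin. Rcor2 was at 10.3, 4.45, 2.49 and 1.503 FPKM and was the only one of the 31 genes past the filter that fell from d12 to d16, Rcor3 was at 6.25, 9.80, 45.3 and 41.9 FPKM, and Rcor1 stayed between 12.7 and 15.6 FPKM. Hdac1, a deacetylase of the same complex, was at 42.3, 59.9, 120.3 and 130.6 FPKM, and its relative Hdac2 at 99.3, 91.7, 48.5 and 49.3 FPKM. Counted over the 31 genes past the filter, 0 rose and 1 fell from d12 to d16, beside 12.6% and 3.67% of all expressed genes. From d16 to d24, 5 rose and 1 fell, beside 27.5% and 8.45%. From d24 to the adult, 1 rose and 0 fell, beside 11.4% and 2.2%. From d12 to the adult, 8 rose and 6 fell, beside 35.7% and 23.1%. The counts from d12 to the adult became 3 rising (Cdyl, Phf2 and Rcor3) and 19 falling with equal sums, beside 23.1% and 49.7%. With upper quartiles they became 3 rising and 15 falling, beside 25.4% and 43.6% of all expressed genes. Cdyl, Phf2 and Rcor3 rose, and Kdm4c, Phf8, Kdm7a, Rcor2, Hdac2 and Kdm1b fell, from d12 to the adult under each of the 4 scalings. The falls were bound to stay, because each rescaling divides the adult by a larger factor than d12.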

How the data were processed

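RNA-seq of 4 mouse testis stages, with 1 library each, was analysed, and groups were taken from the labels. H3K27Ac ChIP-seq (4 samples) was not analysed here. The values are FPKM per gene as deposited by the authors, who aligned strand-specific read pairs by TopHat2 2.1.0 (Bowtie 1.1.2) to GRCm38/mm10 and ran Cuffdiff (Cufflinks 2.2.1), correcting for multi-reads and sequence bias and not for effective length. The scaling between libraries is not given in the sources used here. RefSeq GRCm38.p6 gave positions and promoters.

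The FPKM of 1 fragment was found from the low values of the 14603 genes with 1 curated transcript, as the unit of which they were whole multiples. Between 91.0% and 91.6% of these low values were whole within 0.05. Fragments of a gene were then counted with its shortest curated transcript. Of the 9 genes only Kdm4d has 1 curated transcript. At 1 kb, 3 fragments correspond to between 0.137 FPKM (d24) and 0.337 FPKM (adult). Intervals are exact Poisson for levels and Clopper-Pearson for ratios. Log2 changes used a pseudocount of 0.1 FPKM, which understates the changes of low genes, and a mean of at least 1 FPKM as filter. Near copies were searched with blastn 2.17.0 (at least 95% identity over 80% of the length). The scripts, in python 3.11.15 with numpy 2.4.6, pandas 2.3.3, scipy 1.17.1 and matplotlib 3.10.9, were tested on simulated data. Alternatives were 3 scalings, a pseudocount of 1 FPKM, no filter or a mean of 5 FPKM, limits of 1.5-fold and 3-fold, and ratios of fragments without length. The counts of the other pathway genes under the 3 scalings were added after the values were seen.

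The genes named are the 9 genes, list genes that changed at least 2-fold between consecutive stages (Kdm4a, Rcor1, Hdac2, Setdb1 cofactors and other list genes given by their change from d12 to the adult were named after their values were seen), and the 3 genes nearest in profile to Suv39h2, Kdm3a and Kdm4d. Members and lists were chosen with earlier results of these data known.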

Additional observations from a re-analysis of the deposited data

How the results depend on the processing

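With 1 library per stage no replicate could be left out. No paired analysis was possible because the labels give 1 library per stage and no replicate numbers. Of 64 alternative values of the 8 counts of rising or falling genes, 48 stayed within 1.5 times the count and 16 moved. With equal FPKM sums, 1 gene rose and 3 fell from d16 to d24, beside 19.2% and 29.8% of all expressed genes. From d24 to the adult 1 then fell, beside 9.10%, and from d12 to the adult 1 rose and 4 fell, beside 23.1% and 49.7%. With upper quartiles, 1 rose and 3 fell from d16 to d24, beside 20.2% and 26.1%. From d12 to the adult 1 then rose and 4 fell, beside 25.4% and 43.6%. With a limit of 1.5-fold, 2 fell from d16 to d24, 1 rose and 1 fell from d24 to the adult, and 5 rose from d12 to the adult. With a limit of 3-fold, 1 rose from d12 to d16, 1 rose and 0 fell from d16 to d24. The shares of all expressed genes at the 1.5-fold and 3-fold limits are not given here, so these counts cannot be set against all genes. Median-of-ratios scaling, the pseudocount and the filters moved no count. The median-of-ratios factors lay between 1.00 and 1.05 of d12, so that scaling could hardly move a count. The limits move the counts by construction. The equal-sum and upper-quartile factors grow from each stage to the next, so they can only remove rises and add falls. Why the factors differ between libraries was not tested. Of 36 folds, 27 kept their direction under the 3 scalings and 9 did not: Setdb1 from d12 to d16, Suv39h2 and Kdm1a from d16 to d24 and from d12 to the adult, and Setdb2, Ehmt2, Kdm4d and Kdm1a from d24 to the adult. All 9 were above 1 as deposited, and equal sums or upper quartiles could turn only such folds. Of 108 rescaled folds, 63 lay outside the counting interval of the deposited fold. Ratios of fragments without length lay outside it for 18 of 20 gene ratios, as their construction implies, and Setdb1 over Setdb2 then ran from 1.95 (d12) to 3.48 (d24). Depth limits Kdm4d at d12 (26 fragments) and Suv39h1 in the adult (88) most.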

Other observations

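The genes nearest in profile were found by the root mean square distance between centred log2(FPKM + 0.1) values over the 4 libraries, as a description over 4 points. Nearest to Kdm4d was Spdyb, with 0.0439, 1.011, 5.48 and 5.61 FPKM at d12, d16, d24 and adult (distance 0.0352), followed by Ccdc151 (1.27, 10.4, 55.9 and 58.9 FPKM) and Nup62-il4i1 (0.417, 3.62, 18.0 and 18.9 FPKM), and 70 genes lay within 0.25. Nearest to Kdm3a was Dpcd, with 8.73, 21.4, 35.3 and 31.4 FPKM (distance 0.0127), followed by Suox and Fam216a, and 335 genes lay within 0.25. Nearest to Suv39h2 was Wasf2, with 8.87, 6.30, 7.45 and 15.4 FPKM (distance 0.0505), followed by Rpain and Cyp2d22, and 328 genes lay within 0.25. The 3 profiles were thus shared with other genes in each case, fewest for Kdm4d.

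Of 5 genes often used as reference, 4 were lower in the adult than at d12, at 0.291-fold for Gapdh, 0.313-fold for Hprt, 0.706-fold for Actb and 0.708-fold for Polr2a, and Tbp was 5.39-fold higher.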
